A study of Homo sapiens with 24 samples.

Results

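The data describe 10 genes that transmit or restrain signalling by the kinase ERK, out of 60675 Ensembl gene IDs counted by RNA-sequencing in MIA PaCa-2 cells, an established human pancreatic carcinoma cell line. The 10 genes were taken by name, as the rows of the count matrix whose Ensembl IDs map to ETS1, ETS2, ETV4, ETV5, DUSP4, DUSP5, DUSP6, SPRY2, SPRY4 and SPRED1, and all 10 passed the filter on low counts in each of the 11 comparisons. C/EBPδ-inducible cells carried a doxycycline-responsive Tet-On construct with the CEBPD coding sequence, were a pool of clones and expressed mVenus. CTRL cells carried the construct without that sequence and expressed mCherry. Both lines received 2 µg/mL doxycycline for 0, 8, 24 or 48 h, with 3 libraries in each of 8 groups and 24 libraries in all. The labels give the dose for the 0 h samples as well, and these are treated here as not yet induced. The question was which expression changes follow the induction of C/EBPδ, with CTRL cells showing what doxycycline and time in culture did without it.

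ETS1 and ETS2 are transcription factors with an ETS DNA-binding domain that ERK phosphorylates. ETV4 and ETV5 belong to the PEA3 group of ETS factors, whose transcription rises when ERK is active. DUSP4, DUSP5 and DUSP6 are phosphatases that remove the activating phosphates from MAP kinases, with DUSP6 acting on ERK in the cytoplasm and DUSP5 on ERK in the nucleus. SPRY2, SPRY4 and SPRED1 are inhibitors that act between growth factor receptors, RAS and RAF. Many of these genes are themselves induced by ERK, so that their products limit the signal that raised them.

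Libraries held 12731237 to 22598595 counts assigned to genes. CEBPD itself stood at 3.71 to 4.2 CPM (counts scaled to a library total of 1000000) in CTRL cells at 0 h and at 18.9 to 23.4 in C/EBPδ-inducible cells at 0 h, before induction. It reached 239 to 267 CPM at 8 h, 297 to 321 at 24 h and 200 to 212 at 48 h in C/EBPδ-inducible cells, and these counts do not separate the construct from the endogenous gene. The 2 lines also differed in markers of the parent line. The keratin KRT8 was at a mean of 1560 CPM in CTRL cells and 74.3 in C/EBPδ-inducible cells at 0 h, and KRT18 at 1154 and 113, while vimentin (VIM) was at 6934 and 5840. Of 5 markers of other cell types, 4 were at or near 0, with 0 counts for PRSS1 and INS in every library, 0 to 1 for PTPRC and 0 to 6 for PECAM1. The fifth, the fibroblast collagen COL1A1, had 3 to 43 counts. It was higher in C/EBPδ-inducible than in CTRL cells at 24 h (log2 1.22, adjusted p = 0.0066) and higher at 48 h of induction than at 0 h (1.47, adjusted p = 0.000704), at means of 0.833 CPM at 24 h and 1.52 at 48 h, and its part in the results was not tested. Differences between the lines at 0 h cannot be told apart from differences between the founding clones, the fluorescent proteins and the low CEBPD expression before induction. At every time point both keratins were lower in each C/EBPδ-inducible library than in each CTRL library, and their part in the results was not tested. CPM values were adjusted for composition by the trimmed mean of M values (TMM), and a gene was called at an adjusted p under 0.01 by the quasi-likelihood test of edgeR, adjusted over all genes tested after Benjamini and Hochberg.

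ETS1 was the member that separated the lines most. Its level in CTRL cells at 0 h was 59.8, 61.0 and 59.4 CPM, against 172, 184 and 176 in C/EBPδ-inducible cells. Every C/EBPδ-inducible library lay above every CTRL library at each of the 4 time points. In bulk RNA a lower level per cell cannot be told apart from fewer cells that express the gene. The line difference at 0 h was 2.94-fold (log2 fold change 1.55, SE 0.04, adjusted p = 1.7e-17), and at 24 h it was 2.02-fold (1.02, SE 0.04, adjusted p = 2.83e-16). After induction ETS1 did not pass the test at 8 h, with 185, 181 and 185 CPM and a log2 change of 0.04 (95% interval -0.02 to 0.11). At 24 h it had fallen to 118, 118 and 116 CPM, 1.51-fold lower than at 0 h (adjusted p = 4.01e-12), and at 48 h to 108, 104 and 110 CPM, 1.67-fold lower (adjusted p = 4.1e-15). In CTRL cells ETS1 stayed at 61.5, 59.4 and 52.4 CPM at 24 h, a log2 change of -0.05 that did not pass the test, and had fallen to 44.2, 47.1 and 44.7 CPM at 48 h (log2 change -0.41, adjusted p = 7.8e-05). The difference of the 2 changes, tested as an interaction of line and time, was -0.53 on the log2 scale at 24 h (95% interval -0.66 to -0.41, adjusted p = 1.06e-06) and -0.33 at 48 h (adjusted p = 0.00115). At 8 h it was -0.07 (95% interval -0.20 to 0.06).

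Ordered by group mean, ETS1 ran from 184 CPM in C/EBPδ-inducible cells at 8 h, through 177 at 0 h, 117 at 24 h and 107 at 48 h, to 64.9 in CTRL cells at 8 h, 60.1 at 0 h, 57.8 at 24 h and 45.3 at 48 h. The ranges of the first pair and of the CTRL groups at 0 and 24 h overlapped, and those of the other neighbours did not. Over the 8 group means, 9151 genes with a mean of at least 10 CPM were ranked by Pearson correlation with ETS1 on the log2(CPM + 1) scale. The closest were DCLK2 (r = 0.995), PABIR2 (0.994), ADSS2 (0.990), ACOT9 (0.989) and NOTCH2 (0.988). Over the 24 libraries r was 0.765 for PABIR2 and 0.972 to 0.987 for the other 4. The 8 group means share the line difference and come from the same libraries. DCLK2, a doublecortin-like kinase, went from a mean of 26.0 CPM in CTRL cells to 58.4 in C/EBPδ-inducible cells at 0 h and to 42.9 at 24 h.

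ETS2 was also higher in C/EBPδ-inducible cells. It was at 14.3, 15.4 and 18.8 CPM in CTRL cells at 0 h and at 24.7, 25.9 and 25.2 in C/EBPδ-inducible cells, which did not overlap (1.55-fold, log2 0.63, SE 0.08, adjusted p = 1.7e-06). At 8 h of induction it had risen to 31.6, 30.1 and 27.9 CPM (log2 change 0.24, adjusted p = 0.00247), a call that was lost without any 1 of 3 libraries, with adjusted p of 0.0133 without C/EBPδ-inducible replicate 1 at 0 h, 0.0104 without replicate 3 at 0 h and 0.0306 without replicate 1 at 8 h. The call at 8 h was also lost in a model of all 24 libraries (adjusted p = 0.0206). At 24 and 48 h ETS2 did not pass the test in C/EBPδ-inducible cells. In CTRL cells it had fallen to 11.4, 11.2 and 11.8 CPM at 48 h (log2 change -0.50, adjusted p = 0.00227, and 0.0105 without CTRL replicate 3 at 0 h). The difference of the changes at 48 h was 0.47 and missed the threshold (adjusted p = 0.0169). It passed with DESeq2 (adjusted p = 0.00992), with no filter on low counts (0.00348), in a model of all 24 libraries (0.0091) and without CTRL replicate 1 at 0 h (0.00609).

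**Figure D1:**
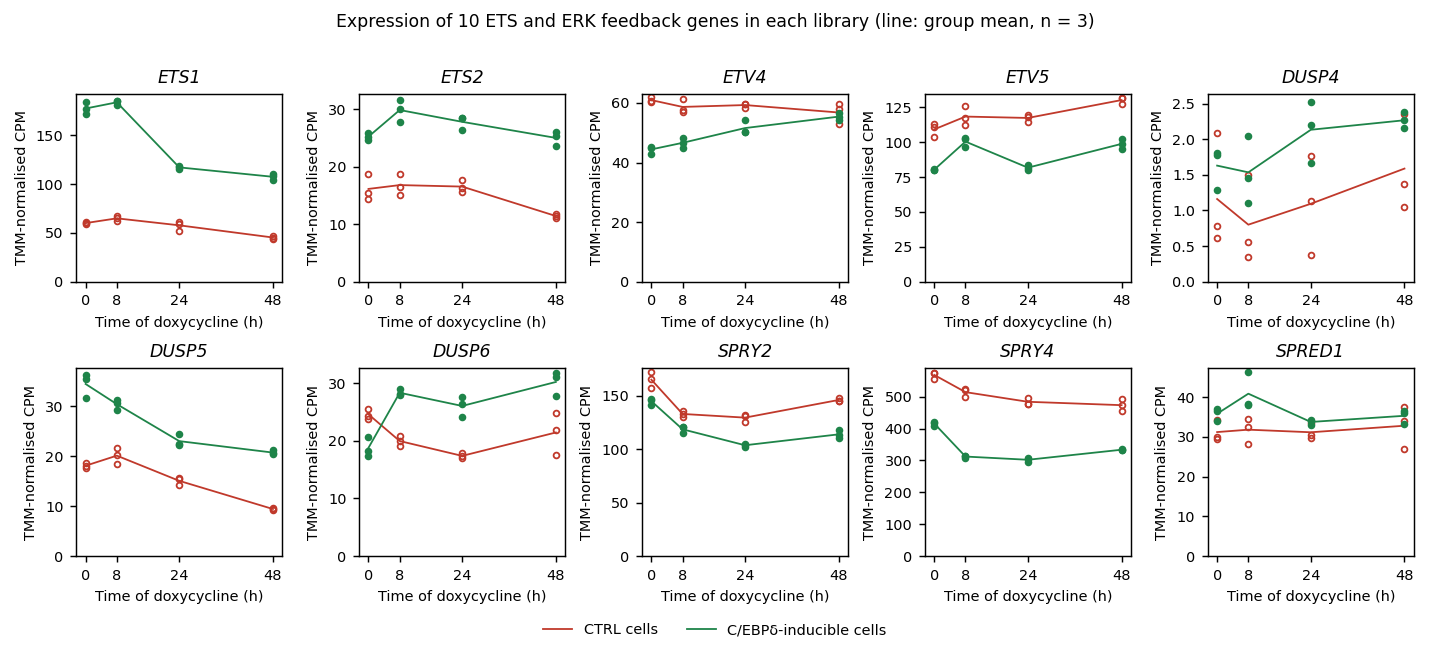
TMM-normalised CPM of each gene in every library against hours of doxycycline, with open red circles for CTRL cells, filled green circles for C/EBPδ-inducible cells and lines through the means of 3 libraries. ETS1 and DUSP5 lie higher in C/EBPδ-inducible cells throughout, SPRY4 and SPRY2 lie lower, and DUSP6 crosses from below CTRL cells at 0 h to above them at 8 h.

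The PEA3 factors went the other way from ETS1 between the lines. ETV4 was at 60.5, 62.0 and 60.3 CPM in CTRL cells at 0 h and at 45.0, 42.9 and 45.3 in C/EBPδ-inducible cells, 1.38-fold lower (log2 -0.47, SE 0.04, adjusted p = 3.13e-08). After induction it had risen to 54.4, 50.1 and 50.2 CPM at 24 h (log2 change 0.22, adjusted p = 0.00118, and 0.0165 without C/EBPδ-inducible replicate 2 at 0 h) and to 56.7, 54.4 and 55.2 CPM at 48 h (0.31, adjusted p = 3.88e-06). The induced libraries at 48 h lay within the range of CTRL cells at that time, 52.9 to 59.6 CPM. ETV4 did not pass the test at any time in CTRL cells, and the difference of the changes was 0.40 at 48 h (adjusted p = 0.000824). At 24 h it was 0.26 (adjusted p = 0.00443), a call lost in a model of all 24 libraries (0.0204) and without any 1 of 4 libraries. Adjusted p was 0.0106 to 0.0221 without CTRL replicate 2 at 0 h, CTRL replicate 2 at 24 h, C/EBPδ-inducible replicate 2 at 0 h or C/EBPδ-inducible replicate 1 at 24 h.

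ETV5 was at 111, 113 and 104 CPM in CTRL cells at 0 h and at 81.1, 79.9 and 79.9 in C/EBPδ-inducible cells, 1.37-fold lower (adjusted p = 6.15e-09). It had risen to 103, 96.4 and 102 CPM at 8 h of induction (log2 change 0.31, adjusted p = 2.02e-07), was at 81.2, 83.8 and 80.3 CPM at 24 h, which overlapped the libraries at 0 h, and was again higher at 48 h, at 103, 94.9 and 99.0 CPM (0.29, adjusted p = 1.11e-06). In CTRL cells it also rose at 48 h, to 127, 132 and 131 CPM (0.25, adjusted p = 0.00141, and 0.011 to 0.0283 without CTRL replicate 1 or 3 at 0 h or replicate 3 at 48 h). The difference of the changes did not pass the test at any time and was 0.03 at 48 h (95% interval -0.10 to 0.16).

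DUSP6 changed sides. In CTRL cells at 0 h it was at 24.4, 25.5 and 23.8 CPM and in C/EBPδ-inducible cells at 17.4, 20.7 and 18.3, 1.31-fold lower (log2 -0.39, SE 0.07, adjusted p = 9.76e-05). At 8 h of induction it had risen to 28.0, 28.9 and 28.1 CPM (log2 change 0.58, adjusted p = 5.53e-07), and it was at 27.6, 24.1 and 26.4 CPM at 24 h and 27.7, 31.0 and 31.8 at 48 h, above all 3 libraries at 0 h each time. In CTRL cells it was at 19.1, 20.8 and 20.0 CPM at 8 h, had fallen to 17.9, 17.0 and 17.3 at 24 h (log2 change -0.50, adjusted p = 1.38e-05) and spread from 17.6 to 24.8 at 48 h. At 24 h DUSP6 was 1.49-fold higher in C/EBPδ-inducible than in CTRL cells (adjusted p = 4.97e-08). The difference of the changes was 0.88 on the log2 scale at 8 h (95% interval 0.67 to 1.10, adjusted p = 0.000122), 0.97 at 24 h (0.77 to 1.18, adjusted p = 1.19e-07) and 0.87 at 48 h (0.57 to 1.17, adjusted p = 0.000375). DUSP6 was the only one of the 10 genes with an interaction call at all 3 times. An unnamed gene on the opposite strand, ENSG00000274021, shares 1105 exon bases with DUSP6 and had 1 to 12 counts in any library. These counts do not show whether DUSP6 reads in the shared bases were all counted.

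DUSP5 was higher in C/EBPδ-inducible cells at 0 h, at 31.6, 35.6 and 36.3 CPM against 18.7, 17.7 and 18.0 in CTRL cells (1.89-fold, log2 0.92, SE 0.06, adjusted p = 4.17e-10). It fell in both lines. At 8 h of induction it was at 31.4, 29.4 and 30.6 CPM, a log2 change of -0.19 that missed the threshold (adjusted p = 0.0127) and passed with no filter on low counts (0.00902) or without C/EBPδ-inducible replicate 1 at 0 h (0.00332). After 24 h of induction it was at 24.4, 22.3 and 22.4 CPM (log2 change -0.58, adjusted p = 1.7e-07) and after 48 h at 20.6, 20.4 and 21.2 CPM (-0.75, adjusted p = 2.43e-10). In CTRL cells it was at 15.6, 14.2 and 15.4 CPM at 24 h (-0.26, adjusted p = 0.017, not called) and at 9.43, 9.22 and 9.64 CPM at 48 h (-0.95, adjusted p = 3.17e-06). The difference of the changes did not pass the test at any time, at -0.31 at 24 h (adjusted p = 0.0374) and 0.19 at 48 h (adjusted p = 0.28).

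DUSP4 was barely detected, with 7 to 55 counts in a library and 0.344 to 2.53 CPM. It passed the test in none of the 11 comparisons by edgeR's quasi-likelihood test. The 95% interval of the line difference at 0 h ran from -0.26 to 1.18. Without CTRL replicate 3 at 0 h, which was at 2.09 CPM against 0.616 and 0.778 in the other 2, that line difference was 1.22 and passed the test (adjusted p = 0.00562). Without CTRL replicate 3 at 24 h the line difference at 24 h was 1.43 (adjusted p = 0.00109), against 0.91 (adjusted p = 0.0127) with it. With no filter on low counts the latter passed as well (0.90, adjusted p = 0.000798).

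SPRY4 had the highest level per exon length of the 10 genes in both lines at 0 h. It was at 557, 575 and 573 CPM in CTRL cells at 0 h and at 421, 417 and 409 in C/EBPδ-inducible cells, 1.38-fold lower (log2 -0.46, SE 0.03, adjusted p = 1.33e-11). After induction it had fallen to 315, 308 and 313 CPM at 8 h (log2 change -0.42, adjusted p = 1.54e-10), 307, 295 and 304 at 24 h (-0.46, adjusted p = 8.34e-12) and 332, 337 and 332 at 48 h (-0.33, adjusted p = 2.19e-10). CTRL cells had 520, 523 and 500 CPM at 8 h, fell to 479, 495 and 478 at 24 h (-0.23, adjusted p = 4.77e-06) and were at 493, 454 and 473 at 48 h (-0.27, adjusted p = 0.000224). The fall was larger in C/EBPδ-inducible cells by 0.22 at 24 h (difference -0.22, 95% interval -0.30 to -0.14, adjusted p = 0.000176). At 8 h the difference was -0.28 (adjusted p = 0.00257), a call lost without any 1 of 5 libraries, with adjusted p of 0.0109 to 0.0167 without replicate 1 of either line at 0 h, C/EBPδ-inducible replicate 2 at 0 h, or replicate 2 of either line at 8 h. At 48 h it was -0.07 (95% interval -0.17 to 0.03) and did not pass.

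SPRY2 fell in both lines by 24 h. It was at 166, 172 and 157 CPM in CTRL cells at 0 h and 146, 141 and 147 in C/EBPδ-inducible cells (log2 -0.20, SE 0.04, adjusted p = 0.000192). At 8 h it was at 120, 115 and 120 CPM in induced cells (log2 change -0.30, adjusted p = 3.33e-07) and at 133, 130 and 136 in CTRL cells (-0.29, adjusted p = 0.0136, not called), and the difference of these changes was 0.01 (95% interval -0.12 to 0.15). The CTRL change at 8 h passed in 5 alternatives, with adjusted p of 0.0011 by DESeq2, 7.51e-05 with no filter, 2.06e-06 in a model of all 24 libraries, 0.0019 without CTRL replicate 1 at 8 h and 0.00948 without replicate 3 at 8 h. After 24 h of induction it was at 102, 104 and 105 CPM (log2 change -0.48, adjusted p = 2.43e-10), and in CTRL cells at 131, 132 and 125 CPM (-0.35, adjusted p = 2.75e-06). The difference of these changes was -0.13 (95% interval -0.23 to -0.02, adjusted p = 0.149) and did not pass. At 48 h SPRY2 was at 118, 110 and 114 CPM in induced cells (-0.36, adjusted p = 6.47e-09) and at 148, 145 and 145 in CTRL cells (-0.18, adjusted p = 0.00902, and 0.0175 to 0.0406 without CTRL replicate 1 or 2 at 0 h or replicate 2 or 3 at 48 h).

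SPRED1 passed the test of edgeR in none of the 11 comparisons, although some alternatives called it. It ranged from 27.0 to 37.5 CPM over the CTRL libraries and from 33.0 to 46.3 over the C/EBPδ-inducible libraries. The line difference at 0 h was 0.19 (SE 0.06, adjusted p = 0.0138), and it passed without CTRL replicate 1 at 0 h (0.26, adjusted p = 0.00092). The change at 8 h of induction was 0.19 (adjusted p = 0.0199). In edgeR it passed with no filter on low counts (0.19, adjusted p = 0.00145), with the replicate number as a block (0.19, adjusted p = 0.00698), and without C/EBPδ-inducible replicate 1 at 8 h (0.25, adjusted p = 0.00649) or replicate 3 at 8 h (0.22, adjusted p = 0.00872).

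The 250 bases before the annotated start are shown for DUSP6, which rose with induction, and for SPRY4 and SPRY2, which fell in both lines. SPRY2 had no interaction call at any time. They come from RefSeq on GRCh38.p14, and 5 of the 10 genes had 1 or more entries, 8 promoters in all. The genes without one were ETS1, ETV4, ETV5, DUSP4 and DUSP5. DUSP6 lies at chr12:89352502-89352751, SPRY4 at chr5:142324248-142324497 and the first of 3 SPRY2 promoters at chr13:80341127-80341376, all on the minus strand and printed 5′ to 3′ toward the gene. Capitals mark the single motif match.
DUSP6: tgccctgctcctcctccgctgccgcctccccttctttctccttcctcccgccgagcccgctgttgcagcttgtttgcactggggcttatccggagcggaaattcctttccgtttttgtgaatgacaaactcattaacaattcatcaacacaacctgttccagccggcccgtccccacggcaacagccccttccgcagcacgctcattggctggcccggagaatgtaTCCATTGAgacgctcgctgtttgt
SPRY4: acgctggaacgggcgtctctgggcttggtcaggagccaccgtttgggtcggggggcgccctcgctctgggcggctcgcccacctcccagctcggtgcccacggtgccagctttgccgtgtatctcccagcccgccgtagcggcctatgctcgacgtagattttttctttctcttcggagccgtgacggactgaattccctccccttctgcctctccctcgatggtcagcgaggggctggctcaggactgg
SPRY2: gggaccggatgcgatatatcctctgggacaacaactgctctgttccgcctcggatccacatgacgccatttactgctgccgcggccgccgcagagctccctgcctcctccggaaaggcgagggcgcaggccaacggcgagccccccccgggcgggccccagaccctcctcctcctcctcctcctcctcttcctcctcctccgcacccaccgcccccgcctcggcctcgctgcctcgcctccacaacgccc
The letters searched on both strands were the C/EBP palindrome TTGCGCAA and its looser form TTNNGNAA, the ETS site CCGGAAGT, the AP-1 site TGANTCA, and 4 spellings of the site of Capicua (CIC), a repressor that ERK relieves, TGAATGAA, TGAATGGA, TCAATGAA and TCAATGGA. The last 2 spellings were added after the first results were seen. The looser C/EBP form contains the palindrome. The match was TCAATGGA in the DUSP6 promoter, read as TCCATTGA on the printed strand, at 24 to 17 bases before the start (-24 to -17). It occurred in 0.436% of 35116 promoters of the same length. The other shares were 0.131% for the palindrome, 33.2% for the looser C/EBP form, 3.42% for the ETS site, 6.57% for AP-1, and 1.40%, 0.832% and 0.635% for the other Capicua spellings. A match in these letters is a description of the sequence and not a binding site.

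Per exon length, on the scale of CPM per kilobase of exon, CTRL cells at 0 h had SPRY4 at a mean of 86.7, SPRY2 at 51.3, ETV5 at 18.9, ETV4 at 17.3, ETS1 at 8.40, DUSP5 at 7.14, DUSP6 at 6.37, SPRED1 at 4.03, ETS2 at 3.25 and DUSP4 at 0.160. Only SPRED1 and ETS2 were neighbours in that order whose SDs overlapped. In C/EBPδ-inducible cells at 0 h ETS1 was the third, at 24.8, behind SPRY4 at 63.4 and SPRY2 at 45.1. There ETV5 at 13.9, DUSP5 at 13.6 and ETV4 at 12.6 were within the SDs of their neighbours, as were ETS2 at 5.08, DUSP6 at 4.87 and SPRED1 at 4.63.

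**Figure D2:**
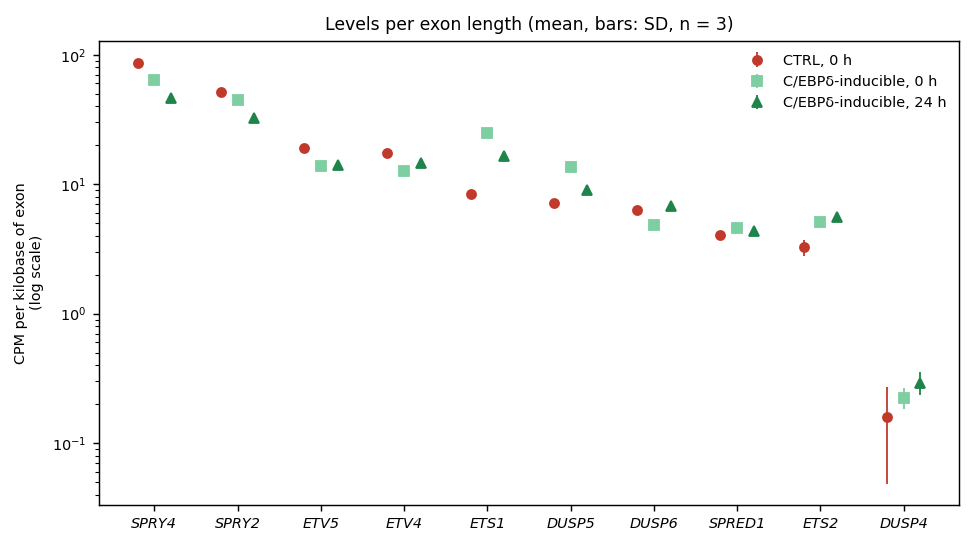
Mean CPM per kilobase of exon on a log axis for the 10 genes in 3 groups, with bars of 1 SD over 3 libraries. ETS1 stands at 8.40 in CTRL cells and 24.8 in C/EBPδ-inducible cells at 0 h, and DUSP4 lies below 1 in all 3 groups.

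Counted together, 8 of the 10 genes differed between the lines at 0 h. Of these, 3 were higher in C/EBPδ-inducible cells and 5 were lower, where 20.0% of all 15317 genes tested were higher, 23.9% lower and 43.9% called in all. At 24 h it was again 8 of 10, with 4 higher and 4 lower, where 21.5% of all genes were higher, 25.3% lower and 46.9% called. With the per-gene ANOVA that the study used, ETV4 lost its call there (adjusted p = 0.019). The 3 libraries of each line did not overlap for 8 genes at 0 h (60.2% of all genes) and for 8 at 24 h (61.8%). Within C/EBPδ-inducible cells 5 genes were called at 8 h, 3 higher and 2 lower, beside 14.6% higher, 15.8% lower and 30.5% called among all genes. At 24 h 6 were called, 2 higher and 4 lower, beside 7.33%, 8.14% and 15.5%. At 48 h 7 were called, 3 higher and 4 lower, beside 19.1%, 19.5% and 38.7%. Libraries did not overlap those at 0 h for 7, 7 and 8 genes at the 3 times (49.7%, 36.5% and 55.5% of all genes).

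In CTRL cells 0 of the 10 genes were called at 8 h by edgeR, beside 0.905% higher, 0.793% lower and 1.70% called among all genes, while 5 had an unadjusted p under 0.05 and 1, SPRY2, was called by DESeq2. At 24 h 3 were called, all lower, beside 2.81% higher, 3.25% lower and 6.06% called. At 48 h 6 were called, 1 higher and 5 lower, beside 15.2%, 14.7% and 30.0%. Libraries did not overlap those at 0 h for 4, 6 and 7 genes (26.7%, 28.6% and 52.7% of all genes). The interaction was called for 2 genes at 8 h, 1 in each direction, beside 0.887% positive, 0.770% negative and 1.66% called. At 24 h it was called for 4, 2 in each direction, beside 2.86%, 2.98% and 5.84%, and at 48 h for 3, 2 positive and 1 negative, beside 2.83%, 2.72% and 5.54%. The median interaction over the 10 genes at 24 h was -0.08, beside -9e-04 over all genes. The 10 genes were chosen with earlier results of these data known, so that their counts beside the shares of all genes do not test an excess.

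**Figure D3:**
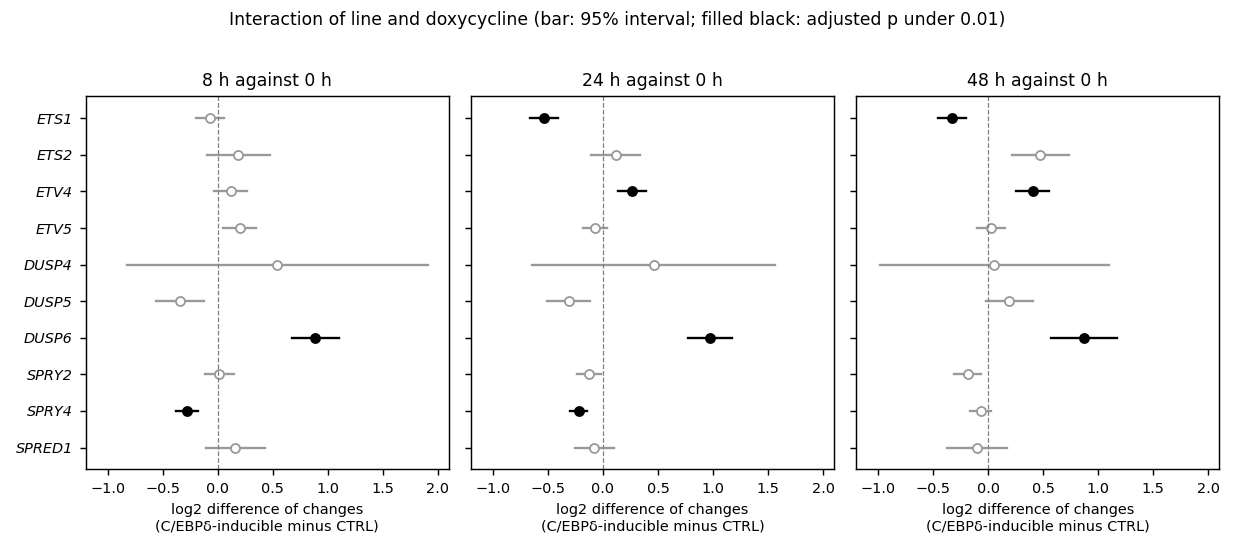
Difference of the log2 changes from 0 h, C/EBPδ-inducible minus CTRL cells, at 8, 24 and 48 h, with 95% intervals and filled black points for an adjusted p under 0.01. DUSP6 lies between 0.87 and 0.97 at the 3 times, ETS1 is at -0.53 at 24 h and -0.33 at 48 h, and the interval of DUSP4 at 8 h runs from -0.83 to 1.91.

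**Figure D4:**
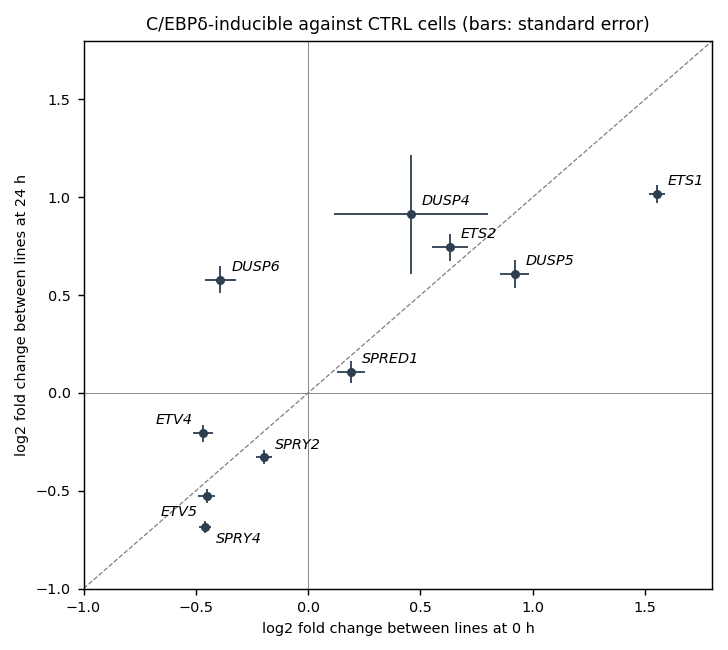
Log2 fold change between the lines at 24 h against that at 0 h, with bars of 1 SE and a dashed line of equality. DUSP6 is at -0.39 on the horizontal and 0.58 on the vertical axis, and ETS1 is at 1.55 and 1.02.

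The other genes of the pathway were grouped in lists. At 24 h of induction the called genes of the ERK output and Capicua lists only fell, and the other lists had calls in both directions. Their counts at 24 h of induction stand beside 7.33% higher and 8.14% lower among all genes tested. Among 7 other MAP kinase phosphatases, 5 were tested in C/EBPδ-inducible cells at 24 h, and 1 rose and 2 fell. DUSP7, an ERK phosphatase, had fallen from a mean of 154 to 95.3 CPM (log2 change -0.69, adjusted p = 3.99e-12), and the difference from CTRL cells was -0.43 (adjusted p = 2.35e-05). DUSP1 had fallen by 0.47 on the log2 scale (adjusted p = 4.94e-06) with no interaction call, and DUSP16 had risen by 0.40 (adjusted p = 5.36e-06). A list of 11 genes held Sprouty relatives, receptor inhibitors and also RASA1, RASA2, NF1, PEA15 and IER3. Of these 11, 3 rose and 1 fell. RASA2 fell, from a mean of 45.4 to 33.5 CPM, and SPRED2 rose, from 60.0 to 74.8 CPM. In CTRL cells at 0 and 24 h RASA2 was at 36.7 and 31.7 CPM and SPRED2 at 60.6 and 68.5. IER3, an early response gene, had risen from a mean of 10.1 to 20.1 CPM at 24 h (log2 change 1.00, adjusted p = 3.77e-09) and was at 31.3 CPM at 48 h, against 10.9 and 12.8 CPM in CTRL cells. ERRFI1, an inhibitor of the EGF receptor, had risen by 0.22 (adjusted p = 3.54e-08) while it fell in CTRL cells (-0.16, adjusted p = 3.76e-05).

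Of the 19 adaptors and kinases from receptor to RSK, 3 rose and 2 fell at 24 h of induction. SOS2, a RAS exchange factor, had risen by 0.33 (adjusted p = 1.14e-05) and PTPN11, the phosphatase SHP2, by 0.25 (adjusted p = 3.96e-08). MAP2K2, which encodes the kinase MEK2, fell by 0.30 on the log2 scale (adjusted p = 3.97e-07). Of 4 further genes read as ERK output, 0 rose and 2 fell by edgeR, the ephrin receptors EPHA2 (-0.43, adjusted p = 2.43e-10) and EPHA4 (-0.22, adjusted p = 1.56e-05), while CCND1 (-0.06, adjusted p = 0.165) and PHLDA1 (0.06, adjusted p = 0.198) did not pass. In CTRL cells at 0 and 24 h EPHA2 was at means of 418 and 401 CPM and EPHA4 at 289 and 257. Only EPHA2 among these 4 genes had an interaction call at 24 h (-0.37). Of 23 other ETS factors, 14 were tested, and 1 rose and 2 fell. EHF, an epithelial ETS factor, had risen from a mean of 75.0 to 134 CPM (0.84, adjusted p = 3.68e-14), and ELK3 (-0.46, adjusted p = 5.8e-09) and ELF4 (-0.29, adjusted p = 0.000588) fell. In CTRL cells EHF was at means of 121, 129 and 199 CPM at 0, 24 and 48 h, and it was at 198 CPM at 48 h of induction. Capicua itself (CIC) had fallen at 24 h (-0.28, adjusted p = 1.29e-05), with an interaction of -0.12 that did not pass (adjusted p = 0.196). The median log2 change at 24 h of induction was -0.04 over the tested phosphatases and 0.004 over the list with the Sprouty relatives. It was 0.05 over the adaptors and kinases and -0.14 over the ERK output genes. Over the ETS factors it was -0.02 and over Capicua and its partners -0.05, beside 0.0036 over all genes.

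By position on GRCh38, ETS1 lies at chr11:128458761-128587558, DUSP6 at chr12:89347235-89352501, SPRY2 at chr13:80335976-80341126 and SPRY4 at chr5:142310427-142326455, all protein-coding genes on the minus strand. The RefSeq start of SPRY4 lies inside that span. On the minus strand are also ETV4 at chr17:43527844-43579620, ETV5 at chr3:186046314-186110318 and DUSP4 at chr8:29333064-29350684. ETS2 at chr21:38805183-38824955, DUSP5 at chr10:110497907-110511533 and SPRED1 at chr15:38252836-38357249 are on the plus strand. ETV4 shares 68 exon bases with DHX8 on the opposite strand, which had 1706 to 3379 counts in a library, so that reads there cannot be assigned without strand. The line difference at 0 h was also read in genes starting within 2 Mb of each member. Around ETS1, 8 genes were tested, 2 were higher and 2 lower, and their median log2 difference was 0.02 beside 1.55 for ETS1. A median does not describe each neighbour. FLI1, from the list of other ETS factors, was also higher in C/EBPδ-inducible cells at 0 h (log2 3.52, adjusted p = 2.16e-05 by edgeR). Its means were low, at 0.0709 CPM in CTRL cells and 0.931 in C/EBPδ-inducible cells, and its part in the ETS1 difference was not tested. Around SPRY4, 47 were tested, 2 were higher and 15 lower, and their median was -0.21 beside -0.46 for SPRY4. Around DUSP6, 7 were tested, 4 were higher and 0 lower, and their median was 0.26 beside -0.39 for DUSP6. Among all genes tested at 0 h, 20.0% were higher and 23.9% lower. The neighbours of the remaining members are not described here.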

How the data were processed

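RNA from 24 cultures was depleted of ribosomal RNA and sequenced. Per the labels, the authors trimmed reads with Trimmomatic 0.36, aligned them with HISAT2 to GRCh38 and counted them per Ensembl gene with HTSeq, and deposited raw counts. The strand setting is not given in the sources used here, so how reads in overlapping genes were counted is not known. Gene names and positions came from GENCODE 44, which matched 56558 of 60675 IDs.

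Genes passing filterByExpr were TMM-normalised and tested with edgeR 4.0.16 (glmQLFit, R 4.3.3), fitting only the groups of each comparison, with calls at an adjusted p under 0.01. The study's methods name a per-gene ANOVA, which was run as an alternative because the files hold counts, beside DESeq2 1.42.0, other scaling, no filter, a model of all libraries, a replicate block and leave-one-out fits. Standard errors were taken as the log2 fold change over the root of the F statistic. The 10 genes and the gene lists were chosen with earlier results of these data known. List genes are named by size of change, up to 4 a list, among those called at 24 h of induction or in the interaction at 24 h, and CCND1 and PHLDA1 complete a list of 4. Libraries of a group were seeded wells of 1 line, so that p-values measure the spread between wells. Replicates differed beyond sampling noise, with a chi-square per gene of 1.63 to 14.9 over 24 pairs. Replicate numbers were taken to pair libraries where all 3 same-numbered pairs correlated above 0.1, which held between CTRL cells at 24 and 0 h (r = 0.110, 0.117 and 0.126) and for no other comparison as a whole, although r was positive but lower for induced cells at 8 h (0.0302 to 0.084) and 48 h (0.0161 to 0.0585). In the paired comparison the block changed no call of the 10 genes. On simulated counts for 24 h of induction (15560 genes, 200 of them changed), edgeR recovered 83% of genes changed 2-fold and 65% of those changed 1.5-fold. It also called 9 genes that had not been changed, and DESeq2 called 2 such genes while recovering 75% and 57%. In this simulation the 9 false calls were a larger share of edgeR's calls than the threshold of 0.01. For the interaction at 24 h (16224 genes) edgeR recovered 68% and 54%, with 0 such calls.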

Additional observations from a re-analysis of the deposited data

Results flagged for a closer look

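These results stand here because the change from 0 h differed between the lines by the interaction test, an adjusted p under 0.01 with edgeR's quasi-likelihood test. Differences are on the log2 scale, C/EBPδ-inducible minus CTRL cells. At 8 h DUSP6 differed by 0.88 and SPRY4 by -0.28. At 24 h ETS1 differed by -0.53, ETV4 by 0.26, DUSP6 by 0.97 and SPRY4 by -0.22. At 48 h ETS1 differed by -0.33, ETV4 by 0.40 and DUSP6 by 0.87.

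Among the other pathway genes at 24 h, EPHA2 differed by -0.37 and DUSP7 by -0.43, and DUSP16 by 0.34. IER3 differed by 0.97 and ERRFI1 by 0.39. In the cascade itself SHC1 differed by 0.21, SOS2 by 0.30, PTPN11 by 0.21 and MAP2K2 by -0.23. Of the ETS factors EHF differed by 0.75, ETV6 by 0.25, ELF4 by -0.38 and ELK3 by -0.27. EHF started lower in C/EBPδ-inducible cells, at a mean of 75.0 CPM at 0 h against 121 in CTRL cells. KRT8 and KRT18, which mark the parent line, fell further in C/EBPδ-inducible cells in the same comparison, by -0.74 and -0.47, and their part in these differences was not tested.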

How the results depend on the processing

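No call of the 10 genes changed direction under the alternatives run. Of 52 called values, 28 of 640 refits lost the call. With the per-gene ANOVA 3 of the 10 genes were called at 24 h of induction, against 6, with ETV4 (adjusted p = 0.0661), DUSP5 (0.0226) and DUSP6 (0.0536) lost, and over all genes 498 against 2407. ANOVA also lost ETV4 between the lines at 24 h (0.019). For CTRL cells at 8 h, 0 of the 10 genes were called, against 1 with DESeq2, 1 with no filter, 2 with a model of all 24 libraries and 0 to 1 when a library was left out. All genes called there numbered 259, against 430 with DESeq2, 843 with no filter, 1229 with all 24 libraries and 92 to 774 when a library was left out, the highest without CTRL replicate 1 at 8 h. The interaction at 8 h had 1 to 2 of the 10 genes called when a library was left out, and 269 genes in all, against 423 with DESeq2, 936 with no filter, 441 with all 24 libraries and 131 to 1196 when a library was left out, the highest without CTRL replicate 3 at 8 h. Other counts over all genes that moved by more than 1.5 times were 4317 against 7360 for the lines at 24 h with ANOVA, 3127 against 4693 at 8 h of induction with all 24 libraries, 582 against 921 for CTRL cells at 24 h with all 24 libraries and 505 at the lowest with a library left out, and 603 against 948 for the interaction at 24 h with all 24 libraries. The cause was not tested.

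With the replicate block, all genes called numbered 87 against 259 for CTRL cells at 8 h and 162 against 269 for the interaction at 8 h. SPRY2 in CTRL cells at 48 h lost its call (adjusted p = 0.0294) and SPRED1 at 8 h of induction gained one (0.00698), and the block changed no other call of the 10 genes. Every library deviated most like its own number for induced cells at 8 h and CTRL cells at 24 h and not in the other 6 pairs of groups.

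Values that were not called changed sign as follows. SPRED1 in CTRL cells at 24 h was -9e-04 with DESeq2's scaling in edgeR, -0.0016 with DESeq2 and -0.001 with all 24 libraries. With a library left out, DUSP4 ran from -0.337 to 0.0878 at 8 h of induction, -1.37 to 0.181 in CTRL cells at 8 h, -0.598 to 0.681 at 24 h, and -0.223 to 1.33, -0.296 to 0.983 and -0.706 to 0.430 in the interactions at 8, 24 and 48 h. ETS2 ran from -0.0539 to 0.0199 at 48 h of induction, -0.018 to 0.200 and -0.0501 to 0.160 in CTRL cells at 8 and 24 h, and -0.006 to 0.201 in the interaction at 24 h. SPRED1 ran from -0.0692 to 0.0051 at 48 h of induction, -0.0182 to 0.126, -0.0521 to 0.0713 and -0.0377 to 0.185 in CTRL cells at 8, 24 and 48 h, and -0.228 to 3e-04 in the interaction at 48 h. ETS1 in CTRL cells at 24 h ran from -0.0969 to 0.0095 and SPRY2 in the interaction at 8 h from -0.0172 to 0.0492.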
